A study of Mus musculus with 4 samples.

Results

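C1q-high MHC class II macrophages of 4T1 mouse tumours were defined as cells in which the 3 complement C1q chains made up at least 0.3% of transcripts, with 3 or more transcripts of the MHC class II gene H2-Ab1 and none of the scavenger receptor gene Cd163. Keratin transcripts (Krt8 and Krt18) had to stay under 0.2% and collagen transcripts (Col1a1, Col1a2 and Col3a1) under 0.5%, and each cell needed at least 300 genes and at most 15% mitochondrial transcripts. By this rule 1266 of 32133 cells were C1q-high MHC class II macrophages, a share of 3.94% (95% exact binomial interval 3.73 to 4.16). The levels of C1qa, C1qb, C1qc, H2-Ab1, Cd163, keratins and collagens were thus the measured values that the cells were chosen by, and they are given below only as a description.

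The cells came from tumours of the mouse mammary carcinoma line 4T1 in the right flank of BALB/c females aged 6 to 8 weeks and enriched for the leucocyte marker CD45 before single-cell RNA sequencing. Mice were injected into a vein on day 7 with PBS or with TIOs, which are particles made from cells of a mouse macrophage line by liquid nitrogen treatment and carry light-activated lipid-oxidising nanoparticles, and all tumours received near-infrared light (980 nm at 1.0 W per square cm for 5 min), given 3 times on days 8 to 10, before collection on day 13. The labels give 2 PBS samples (LC-2 and LC-5) and 1 TIOs+NIR3 sample (LC-6), and 1 more sample titled PBS whose protocol names TIOs and which was put in no group. The sources used here do not say how many mice each sample pooled.

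All 4 samples were deposited as 1 matrix of 33064 barcodes, 55450 genes and 355765099 transcripts counted by unique molecular identifier (UMI), and the barcodes fall into 4 libraries by their suffix. Nothing in the labels, headers or methods ties a suffix to a sample title. The libraries are therefore numbered 1 to 4, their treatment is unknown, and no comparison of PBS with TIOs+NIR3 was made. A library is a single capture, so differences between libraries had no replicate check. Intervals after a value are exact 95% intervals and cover counting error only. Levels are UMIs per 1000000 UMIs (CPM), summed over all C1q-high MHC class II macrophages of a library.

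C1q is the recognition unit of the classical complement pathway, and tissue macrophages are its main source in the body. It opsonises dying cells and debris for uptake. MHC class II molecules carry peptides from ingested protein to CD4 T cells, with Cd74 as the chaperone that fills their groove and the H2-DM proteins as the exchange factors that load peptide. In tumours, C1q-producing macrophages with MHC class II are a recurring macrophage state beside scavenger receptor-rich ones.

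The C1q-high MHC class II macrophages were concentrated in 1 library. Library 1 held 1203 of 7847 cells (15.3%, 14.5 to 16.1), library 2 held 40 of 8614 (0.464%, 0.332 to 0.632), library 3 held 2 of 6783 (0.0295%, 0.00357 to 0.106) and library 4 held 21 of 8889 (0.236%, 0.146 to 0.361). Library 1 thus supplied 95% of the cells, and the intervals of library 1 and the other 3 libraries were far apart. Without library 1 the share was 0.259% of 24286 cells. The cells had a median of 11025 UMIs in library 1, 7356.5 in library 2 and 11003 in library 4, against 11698, 2641.5 and 7182 over all cells of those libraries. Library 1 also stood apart as the only library with keratin-rich tumour cells (361 cells with keratins at 1% of UMIs or more). The 2 cells of library 3 carried 15294 UMIs together and are counted here but not described gene by gene. The same barcode sequence occurred in more than 1 library for 101 sequences, 8 C1q-high MHC class II macrophages carried such a barcode, and in no case were both copies C1q-high MHC class II macrophages.

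In library 1 the C1q limit lay in a trough between cells with little C1q and cells rich in it. Among library 1 cells that met the other limits, 29 had a C1q share of 0.2 to 0.3%, just outside, and 28 had 0.3 to 0.4%, just inside, whereas 788 had 1 to 2% and 481 were under 0.05%. The median C1q share was 1.24% in library 1, 0.522% in library 2 and 0.601% in library 4. In library 2, 14 cells lay just outside and 10 just inside, and in library 4 the numbers were 7 and 5, so the limit cut through sparser cells there. The H2-Ab1 limit passed through few cells in library 1, with 36 cells at 2 UMIs and 23 at 3, and the median C1q-high MHC class II macrophage of library 1 held 49 H2-Ab1 UMIs against 8.5 in library 2 and 9 in library 4. Of the cells that missed 1 limit only, 2131 missed C1q, 617 missed H2-Ab1, 72 missed Cd163, 80 missed the keratin limit and 5 the collagen limit. The 80 keratin-rich cells were all in library 1, had a median of 26361 UMIs, and 44 of them were marked as doublets by Scrublet.

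**Figure D1:**
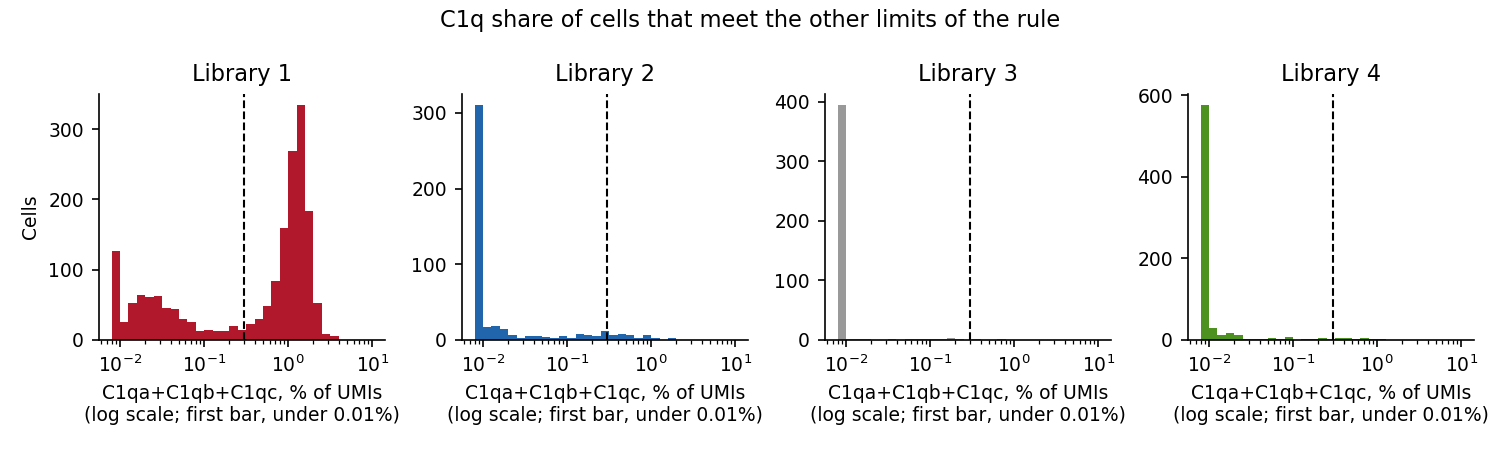
Number of cells (vertical axis, scaled separately in each panel) by the share of UMIs from C1qa, C1qb and C1qc (horizontal axis, log scale, the first bar holding cells under 0.01%) among cells that met the other limits, in each of the 4 libraries. The dashed line is the limit of 0.3%. In library 1 the line falls in a trough, with 788 cells at 1 to 2%, and in the other libraries few cells lie to its right.

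C1q-high cells were spread differently over the H2-Ab1 and Cd163 limits in library 1 and in the others, which is a description, since the rule used both genes. Of all C1q-high cells within the keratin and collagen limits, 87.8% of 1370 in library 1 reached the H2-Ab1 limit with no Cd163 UMI (86.0 to 89.5), against 6.76% of 592 in library 2 (4.87 to 9.09), 2.94% of 68 in library 3 (0.358 to 10.2) and 5.83% of 360 in library 4 (3.65 to 8.78). In libraries 2 to 4 most C1q-high cells were H2-Ab1-low. In library 2, 39.0% were H2-Ab1-low without Cd163 and 46.5% were H2-Ab1-low with Cd163, and in library 4 these shares were 56.1% and 36.7%. In library 1, 10.3% were H2-Ab1-low without Cd163, 1.31% had both genes, and 0.584% were H2-Ab1-low with Cd163. Every cell was also thinned to 5000 UMIs, with cells below that left out. The share at the H2-Ab1 limit without Cd163 was then 96.2% in library 1, 7.84% in library 2, 8.82% in library 3 and 4.86% in library 4. Thinned to 1000 UMIs, with an H2-Ab1 limit of 1 UMI, the shares were 90.9%, 13.75%, 6.45% and 8.73% in libraries 1 to 4.

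**Figure D2:**
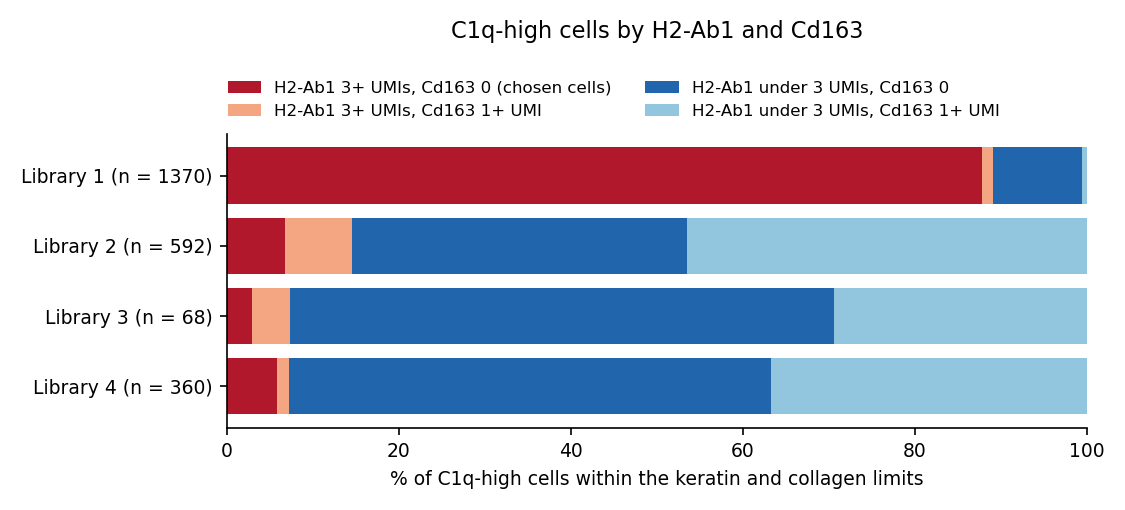
Shares (horizontal axis, %) of the C1q-high cells of each library (n given on the vertical axis) by whether H2-Ab1 reached 3 UMIs and whether a Cd163 UMI was seen. Library 1 is 87.8% H2-Ab1-positive without Cd163, and this class makes up 6.76% or less in libraries 2 to 4.

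The name macrophage was checked against markers that the rule did not use. In library 1, Csf1r, the receptor for the macrophage growth factor, stood at 439.9 CPM (429 to 451) against 25.5 CPM in all other cells, and the lysozyme gene Lyz2 at 5796 against 327. All 8 macrophage markers that the rule did not use were over 2-fold above the other cells in libraries 1 and 2, and 4 of the 8 were in library 4. The share of all genes over 2-fold above the other cells was not computed, so these counts are given only as a description. Against nearer cell groups, described below, fewer markers were over 2-fold higher. They were 2 of 7 measured against Ly6c2 Ccr2 cells and 0 of 8 against Cd163-positive counterparts, beside 0.952% and 2.09% of all genes. A Csf1r UMI was found in 87.9% of the cells in library 1, 36 of 40 in library 2 and 20 of 21 in library 4, and in 9.55% of the library 1 neutrophils, whose median depth was 1585 UMIs. Adgre1, which encodes F4/80, was lower in library 1 than elsewhere, at 88.8 CPM (83.8 to 94.0) in library 1, 324 (266 to 391) in library 2 and 213 (158 to 279.7) in library 4.

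Cx3cr1, the fractalkine receptor gene that usually marks such cells, separated the libraries. It was found at 381 CPM (370.2 to 391) in library 1, 60.0 (36.6 to 92.6) in library 2 and 8.34 (1.01 to 30.1) in library 4, with no UMI in library 3. The Cd163-positive counterparts of library 2, described below, held it at 110 CPM. A Cx3cr1 UMI was present in 73.6% of the cells of library 1 (71.0 to 76.0), 20% in library 2 (9.05 to 35.6) and 9.52% in library 4 (1.17 to 30.4). After thinning to 1000 UMIs, 27.2% of the library 1 macrophages and 0.762% of the library 1 neutrophils kept one. In library 4 the level was no higher than the 13.1 CPM of the remaining cells, so the data go against a Cx3cr1-positive identity there, and the 21 cells are named by the rule alone.

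Most marker lists of other lineages summed to less in these macrophages than in other library 1 cells, whereas the cDC1, cDC2 and monocyte lists and the very low B cell and endothelial lists summed to more. Summed over its markers, the T cell list (6 genes, led by Cd3g) stood at 27.0 CPM in the macrophages against 109 CPM in other library 1 cells, the natural killer list (5 genes, led by Gzma) at 12.0 against 65.4, the B cell list (4 genes, led by Cd79b) at 2.38 against 1.32 and the mast cell and basophil list (4 genes, led by Mcpt8) at 0.818 against 9.19. Ms4a1 and Fcer1a had no UMI. Among dendritic cell markers, Cd209a was found in 1 of 1203 cells, which is no more than in the neutrophils (1 of 817), and Xcr1 or Clec9a in 29 of 1203 against 3 of 817. Flt3 stood at 0.372 CPM, whereas the cDC1 list, led by Irf8, summed to 368 CPM against 97.7 in other cells. The cDC2 list, led by Sirpa, summed to 295 CPM against 28.4. Macrophages also use Itgax (101 CPM), Irf8 (346 CPM) and Sirpa. The mature dendritic cell list summed to 20.6 CPM against 129 with Lamp3 at 0, the plasmacytoid list to 448 against 816, of which the broadly used Bst2 gave 372, with Siglech at 0.149, and the endothelial list to 18.4 against 16.2 with Cldn5 at 0. The 5 epithelial markers summed to 464 CPM in library 1, led by Krt18, against 6293 in other library 1 cells, 27.0 in library 2 and 4.17 in library 4. After thinning, a Krt8 UMI remained in 17.4% of library 1 macrophages and in 27.9% of library 1 neutrophils. The rule limited keratins in the macrophages and not in the neutrophils, so these shares are a description. The 5 fibroblast markers summed to 98.6, 1454 and 830 CPM in libraries 1, 2 and 4, led by Col3a1, against 1285, 24859 and 9675 in other cells. The neutrophil genes S100a8 and S100a9 came mainly from a few cells: 24 of 1203 held 69.1% of their UMIs, and the summed level of 770.2 CPM became 243 without those cells. The 4 remaining neutrophil markers stood at 35.3 CPM or less in library 1. The whole neutrophil list summed to 845 CPM against 2567 in other cells, and in libraries 2 and 4 to 1832 against 7310 and 2202 against 4807. The monocyte list, led by Ccr2 in library 1, summed to 376, 2074 and 4717 CPM in libraries 1, 2 and 4 against 147, 906 and 3503 in other cells, and its genes are described with the monocyte genes below. What cells of these types contributed was not tested. Scrublet scores placed 60 of the 1266 cells (4.74%) in the top 5% of their library, against 5.01% of other cells.

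The MHC class II genes differed between the libraries beyond the chain used to choose the cells. The second I-A chain H2-Aa was found at 6734 CPM (6689.8 to 6778) in library 1, 4107 (3892 to 4330.0) in library 2 and 1214 (1078 to 1361) in library 4, the I-E chain H2-Eb1 at 4362 CPM in library 1, 2041 in library 2 and 697 in library 4, and the invariant chain Cd74 at 21331 CPM in library 1, 8987 in library 2 and 3466 in library 4. All 3 genes were ordered library 1 over library 2 over library 4, with intervals that did not meet, and H2-Aa was 1.64-fold (1.55 to 1.73) higher in library 1 than in library 2 and 5.55-fold (4.95 to 6.25) higher than in library 4. The peptide exchange genes had the same order, with H2-DMa at 932, 354 and 175 CPM and H2-DMb1 at 625, 204 and 91.8 CPM. Ciita, the coactivator that switches these genes on, stood at 76.8 CPM (72.2 to 81.6) in library 1, 36.0 (18.6 to 62.8) in library 2 and 8.34 (1.01 to 30.1) in library 4. Between libraries 2 and 4 the Ciita intervals overlapped. H2-Oa, which dampens peptide exchange and is typical of B cells, was near 0 at 4.39 CPM. The proteases that digest antigen did not share this order: Ctss stood at 2525, 2173 and 2878 CPM, Lgmn at 921, 2215 and 2215 CPM and the thiol reductase gene Ifi30 at 1098, 845 and 1084 CPM. Of the 12 genes of the presentation list, 6 (H2-Ab1, which the rule used, H2-Eb1, H2-DMa, H2-DMb1, H2-DMb2 and Cd74) were over 2-fold higher in library 1 than in both libraries 2 and 4, with 10 CPM added to each level, and 1, Lgmn, was lower. Of 5603 genes with a mean of at least 20 CPM, 142 (2.53%) were 2-fold higher in library 1 than in both and 333 (5.94%) lower, and these shares are the background for the list counts that follow. The median log2 ratio over all genes was -0.21 for library 1 over library 2 and -0.22 for library 1 over library 4. The other cells of library 1 also carried H2-Aa at 1113 CPM against 435 in library 2 and 471 in library 4. H2-Ea-ps, an I-E alpha gene that the annotation lists as a polymorphic pseudogene, was counted at 3611, 2056 and 629.8 CPM, and how its reads were split from functional relatives was not tested.

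The promoters of H2-Aa and H2-Eb1 are shown because their genes varied together from cell to cell in library 1 (given below) and because both hold the letters CTGATTGG, the Y box of class II promoters, in the 250 bases before or 50 bases after the start. Both strands were searched. Of 32851 mouse promoters of this length in RefSeq (GRCm38.p6), 4.10% hold these letters, as do 3 of the 9 presentation genes with a promoter in that table (H2-Aa, H2-Eb1 and H2-Oa). The H2-Aa promoter lies at chr17:34287774-34288073 on the minus strand and the H2-Eb1 promoter at chr17:34305617-34305916 on the plus strand, and capitals mark the match.
H2-Aa: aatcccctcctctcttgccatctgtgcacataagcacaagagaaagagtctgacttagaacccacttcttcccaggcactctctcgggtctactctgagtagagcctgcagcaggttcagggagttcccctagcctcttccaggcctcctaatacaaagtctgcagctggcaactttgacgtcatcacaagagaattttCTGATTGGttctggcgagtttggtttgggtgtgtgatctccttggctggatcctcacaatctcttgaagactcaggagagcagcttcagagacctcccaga
H2-Eb1: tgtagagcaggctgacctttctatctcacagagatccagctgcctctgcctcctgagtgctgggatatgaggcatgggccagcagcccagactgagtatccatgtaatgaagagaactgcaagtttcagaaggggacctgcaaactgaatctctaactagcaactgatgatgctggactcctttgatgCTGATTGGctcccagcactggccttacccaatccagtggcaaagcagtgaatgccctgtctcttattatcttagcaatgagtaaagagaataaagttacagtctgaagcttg

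Complement genes outside C1q stood at widely different levels. The C1 proteases were nearly absent, with C1ra at 6.62, 3.00 and 12.5 CPM and C1s1 at 0.446, 8.99 and 0 CPM in libraries 1, 2 and 4, and C2 stood at 1.78 CPM in library 1, a level that libraries 2 and 4, with no UMI of it, were too shallow to show. C3, the central component, stood at 79.9, 222 and 108 CPM, below the 742 CPM of other cells in library 2 and the 254 CPM in library 4. Properdin (Cfp), the stabiliser of the alternative pathway, was found at 199 CPM in library 1, 549 in library 2 and 634 in library 4, and the C3a receptor gene C3ar1 at 160.1 CPM in library 1, 285 in library 2 and 521 in library 4. Cfp was 2.76-fold (2.37 to 3.21) and C3ar1 1.78-fold (1.43 to 2.19) higher in library 2 than in library 1. Of the 14 complement genes 2 (Cfp and C5ar1) were over 2-fold lower in library 1 than in both others, and 1 (C1qc, which the rule used) was higher. The chosen C1q chains themselves stood at 5333, 2893 and 2298 CPM for C1qa, 3839, 2311 and 2311 CPM for C1qb and 3237, 1568 and 1509.8 CPM for C1qc. Receptors for antibody were present in all 3 libraries: Fcgr2b at 474, 671 and 334 CPM, Fcgr3 at 592, 539.6 and 551 CPM, Fcgr4 at 364, 195 and 246 CPM and the shared signalling chain Fcer1g at 2666, 3537 and 5142 CPM. None of the 5 Fc receptor genes differed over 2-fold between library 1 and both other libraries. Fcgr1, the high-affinity receptor gene, was 3.73-fold (3.27 to 4.24) higher in library 4 than in library 1, but other library 4 cells also carried it at 553 CPM. Cd14, the lipopolysaccharide co-receptor gene, stood at 891, 603 and 342 CPM and Tlr2 at 107, 255 and 66.7 CPM, and none of the 10 Toll-like receptor genes passed 2-fold against both libraries.

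Interferon-induced genes did not share 1 order across libraries. Cxcl9, a chemokine gene driven by interferon gamma that draws T cells, stood at 389.5 CPM (379 to 400.2) in library 1 and 48.0 CPM (27.4 to 77.9) in library 2 and had no UMI in library 4, and a Cxcl9 UMI was found in 48.0% of library 1 cells against 6.98% of the shallower library 1 neutrophils. After thinning to 1000 UMIs these shares were 19.0% and 4.27%. It was 8.12-fold (5.00 to 14.2) higher in library 1 than in library 2, and 0 of 239770 UMIs in library 4 allows up to 12.5 CPM. Its relative Cxcl10 did not share this order, at 697, 435 and 930.1 CPM, nor did Isg15, a ubiquitin-like antiviral protein gene, at 641, 701 and 1414 CPM, or Rsad2, at 198, 222 and 355 CPM. Isg15 in other cells stood at 289, 483 and 1092 CPM, in the same order. Il1b, the inflammatory cytokine gene, was found at 3633 CPM (3601 to 3666) in library 1, 1489.8 (1362 to 1627) in library 2 and 158 (112 to 218) in library 4, a library 1 level 2.44-fold (2.23 to 2.67) above library 2 and 22.9-fold (16.7 to 32.4) above library 4. The costimulatory gene Cd86 stood at 182, 111 and 75.1 CPM and Tnf at 279, 324 and 234 CPM. Nos2, the nitric oxide synthase gene of classical activation, was close to absent at 8.85 CPM in library 1 and without a UMI in libraries 2 and 4, and Il12b stood at 6.77 CPM. Of the 17 genes of the interferon and classical activation list, 3 (Cxcl9, Il1b and Gbp2b) were over 2-fold higher in library 1 than in both others and 1 (Ifit3) was lower.

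The promoters of Isg15 and Rsad2 are shown because Isg15 and Rsad2 had the closest link of this group across single cells. They hold the letters GAAA, any 2 bases and GAAA again, the core of the interferon-stimulated response element, on either strand. Of the 32851 promoters 3.44% hold them, as do 6 of 12 genes of that list with a promoter (Cxcl10, Gbp2, Gbp2b, Ifit3, Isg15 and Rsad2). The Isg15 promoter (chr4:156200769-156201068, minus strand) has 3 overlapping matches on the printed strand and the Rsad2 promoter (chr12:26456403-26456702, minus strand) has 1 on the opposite strand, and capitals mark them.
Isg15: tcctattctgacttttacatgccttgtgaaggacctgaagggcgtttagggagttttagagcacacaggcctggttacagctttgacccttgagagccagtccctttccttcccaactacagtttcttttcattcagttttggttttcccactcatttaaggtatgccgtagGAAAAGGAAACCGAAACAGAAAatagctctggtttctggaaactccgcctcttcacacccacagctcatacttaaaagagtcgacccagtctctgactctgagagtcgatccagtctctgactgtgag
Rsad2: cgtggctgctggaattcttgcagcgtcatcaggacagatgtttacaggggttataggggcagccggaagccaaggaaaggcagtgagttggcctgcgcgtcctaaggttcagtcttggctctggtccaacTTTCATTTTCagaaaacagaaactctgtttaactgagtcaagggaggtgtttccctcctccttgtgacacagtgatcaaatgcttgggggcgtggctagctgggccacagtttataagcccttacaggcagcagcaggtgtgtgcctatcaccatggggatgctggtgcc

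Genes of resident and scavenging macrophages were mostly lower in library 1. Mrc1, the mannose receptor gene, stood at 137 CPM (131 to 143) in library 1, 941 (840.0 to 1051) in library 2 and 709 (606 to 824) in library 4, and was 6.87-fold (6.07 to 7.75) higher in library 2 than in library 1. Folr2, a folate receptor gene of tissue-resident macrophages, stood at 12.9, 207 and 342 CPM, the transcription factor gene Maf at 85.7, 537 and 638 CPM and the selenium carrier gene Selenop at 379, 2176 and 1201 CPM. The platelet-factor gene Pf4 was found at 411, 5237 and 7862 CPM, while other cells carried it at 35.7, 1499 and 3196 CPM. The 16 genes of this list summed to 3299 CPM in library 1, 10974 in library 2 and 12370 in library 4, beside 321, 3032 and 5155 CPM in other cells, in the same order. Of the 16, 9 were over 2-fold lower in library 1 than in both others and 2 (Cx3cr1 and Axl) were higher. Axl, a receptor for dying cells, stood at 196, 57.0 and 20.9 CPM, below the level of other cells in libraries 2 and 4. Lyve1 and Timd4, markers of perivascular and long-lived resident macrophages, had 1 and 39 UMIs in library 1 and none in libraries 2 and 4. Genes of alternative activation had no common order. The lectin gene Mgl2 was the only one of the 12 that was over 2-fold higher in library 1 than in both others, at 216 CPM (208 to 224) in library 1, 12.0 (3.27 to 30.7) in library 2 and 8.34 (1.01 to 30.1) in library 4, and its relative Clec10a, also a galactose lectin gene, was lowest in library 1, at 15.0, 119.9 and 87.6 CPM. With Mrc1, Il10 and Chil3, Clec10a was 1 of 4 genes of the list that were lower in library 1. Retnla had 4 UMIs in library 1 and none in libraries 2 and 4.

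Genes of lipid handling were carried in all 3 libraries. Apoe, the lipid carrier gene, stood at 8647, 9041 and 7878 CPM and Trem2, a lipid-sensing receptor gene, at 339, 486 and 405 CPM, so their levels lay within 1.5-fold of each other across libraries. The fatty acid carrier gene Fabp5 was 4.09-fold (3.77 to 4.43) higher in library 2 and 7.06-fold (6.56 to 7.59) higher in library 4 than in library 1, and the lysosomal protease genes Ctsd (583, 2251 and 2899 CPM) and Ctsb (2031, 5102 and 6523 CPM) had the same order. Of the 16 genes, 7 were over 2-fold lower in library 1 than in both others and 0 were higher. Spp1 (osteopontin) stood at 1778, 555 and 3904 CPM and at 4321 CPM in other library 1 cells. Gpnmb, another gene of lipid-laden macrophages, had 17 UMIs in library 1, or 1.26 CPM. Among iron genes the ferritin light chain Ftl1 stood at 5531, 11091 and 13600.5 CPM and the haem-degrading Hmox1 at 177, 522 and 592 CPM, and these were the 2 of 7 iron genes that were over 2-fold lower in library 1 than in both others. The iron exporter gene Slc40a1 stood at 2.16 CPM.

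Several chemokine genes were lower in library 1 too, where other cells also carried less of them. The 13 genes summed to 14375 CPM in library 1, 24322 in library 2 and 21078 in library 4, beside 2452, 17093 and 15252 CPM in other cells. Ccl8, which binds the monocyte receptors, stood at 633 CPM (620.0 to 647) in library 1, 5369 (5123 to 5623) in library 2 and 4212 (3957 to 4480.4) in library 4 and Ccl7 at 614, 1981 and 1368 CPM. Ccl6 and Ccl9 followed, at 299, 2191 and 2811 CPM and 87.2, 728 and 1564 CPM, so that 6 of 13 chemokine genes were over 2-fold lower in library 1 than in both others. Ccl3, which recruits leucocytes, was the only one of these 13 genes 2-fold higher there, at 969.8, 402 and 450.4 CPM. Cxcl2, which draws neutrophils, differed little, at 5268, 6112 and 5489 CPM, and so did Ccl12 at 774, 752 and 867 CPM. The scavenger-chemokine gene Cxcl16 stood at 737, 509.6 and 275 CPM, well above the 92.9, 79.9 and 69.4 CPM of other cells. Of ligands that restrain or help T cells, Cd274 (PD-L1) stood at 113, 62.9 and 12.5 CPM and Pdcd1lg2 (PD-L2) at 24.9 CPM in library 1 with no UMI in libraries 2 and 4. Vsir (VISTA) was at 132, 186 and 192 CPM and Sirpa, the receptor of the do-not-eat-me signal, at 179, 399 and 413 CPM. Of the 11 ligand and receptor genes 1 (Pdcd1lg2) was over 2-fold higher and 1 (Sirpa) lower in library 1 than in both others.

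Genes of recent monocyte origin were lowest in library 1 and highest in library 4. Ly6c2, the classical monocyte marker, stood at 2.38 CPM (1.63 to 3.36) in library 1, 129 (93.3 to 174) in library 2 and 880.0 (765 to 1007) in library 4, and a Ly6c2 UMI was found in 24 of 1203, 12 of 40 and 19 of 21 cells. The library 1 share of 2.0% was no higher than the 2.20% of the library 1 neutrophils, so it is not read as expression. The other cells of library 4 carried Ly6c2 at 447 CPM. Plac8 stood at 106, 971 and 1989 CPM, F13a1 at 19.7, 354 and 767 CPM and the chemokine receptor gene Ccr2 at 244, 501 and 655 CPM. Chil3 had no UMI in library 1. Of the 10 monocyte genes 8 were over 2-fold lower in library 1 than in both others. Fn1 and Ifitm6 were not among them, and Fn1 stood at 755, 387 and 375 CPM. Ly6c2 and Plac8 were also abundant in the other cells of library 4, whose Ly6c2 Ccr2 cells numbered 3176, and what those cells contributed to the levels was not tested.

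**Figure D3:**
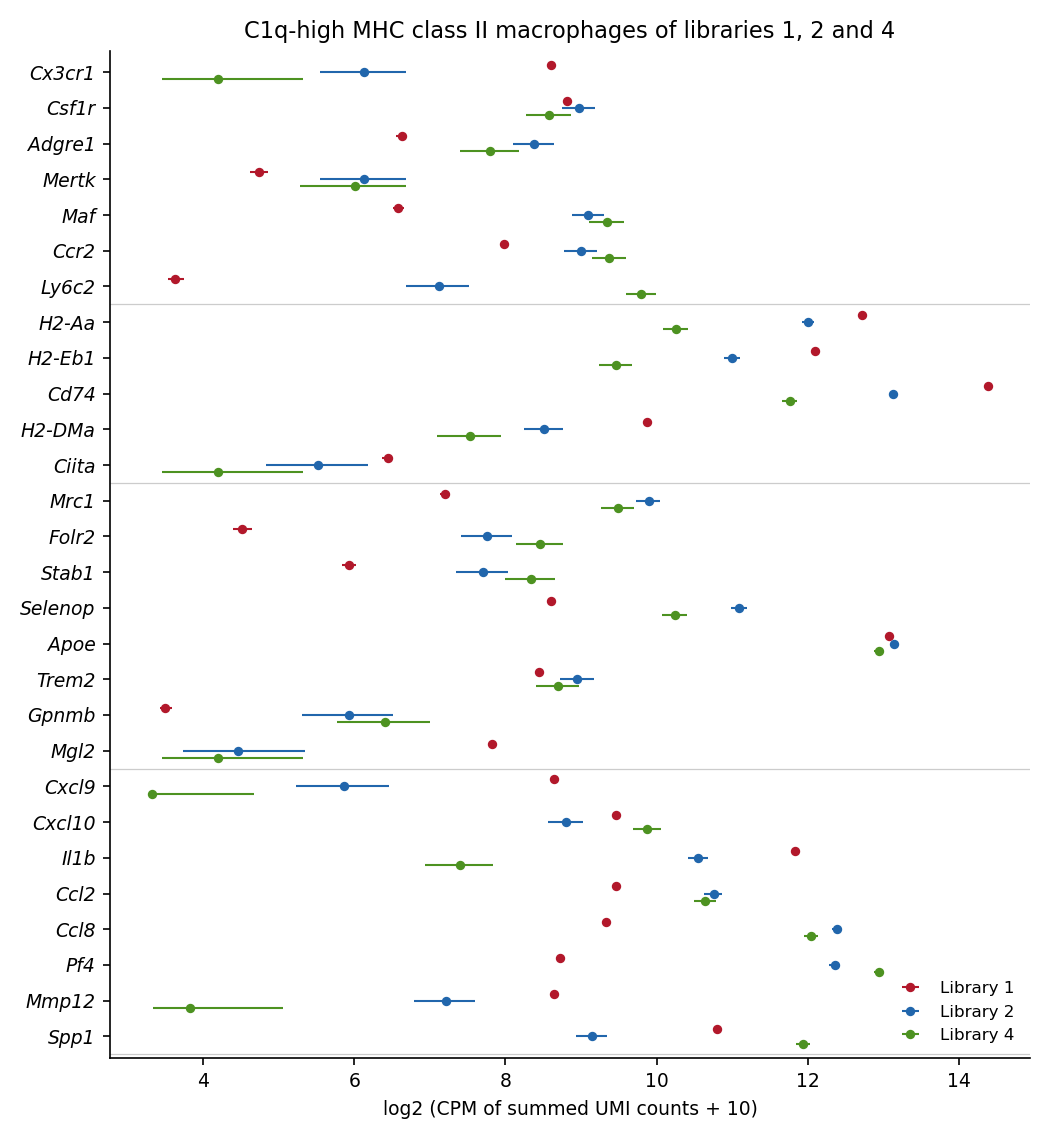
Levels of named genes (vertical axis) in the C1q-high MHC class II macrophages of library 1 (1203 cells), library 2 (40 cells) and library 4 (21 cells), as log2 of CPM of summed UMI counts plus 10 (horizontal axis), with bars for exact 95% Poisson intervals. MHC class II genes, Cx3cr1, Cxcl9 and Il1b lie highest in library 1, while Mrc1, Pf4, Ccl8 and Ly6c2 lie lowest there.

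Stress and immediate-early genes were higher in library 1, in the C1q-high MHC class II macrophages and in the other cells. The 11 genes of the list summed to 19818 CPM in library 1, 10395 in library 2 and 6932 in library 4. In other cells of these libraries they summed to 12470, 7854 and 6555 CPM. Hspa1a, which encodes the inducible chaperone Hsp70, stood at 1890.2 CPM (1867 to 1914) in library 1, 198 (153 to 252) in library 2 and 150.1 (105 to 208) in library 4, with 154 CPM in other cells of library 1. Fos stood at 4444, 2320.1 and 1385 CPM and at 2225 CPM in other library 1 cells, Jun at 3423, 1166 and 1481 CPM and 2533, and Atf3 at 3084, 1415 and 993 CPM and 1608. Of the 11 genes, 6 were over 2-fold higher in library 1 than in both others and 0 were lower. Immediate-early and heat shock genes respond to tissue handling as well as to signals in the tumour, and the handling of each library was not recorded in the labels. The lineage transcription factor genes Spi1 (379.6, 339 and 409 CPM) and Cebpa (108, 77.9 and 100.1 CPM) differed less than 2-fold, and Irf8, which drives phagocyte development, was 2.89-fold (2.12 to 4.05) higher in library 1 than in library 2. It was the only one of 12 factors over 2-fold higher in library 1 than in both others, and Maf the only one lower. Among genes for matrix and growth factors, the elastase gene Mmp12 stood at 390.5 CPM (380.0 to 401) in library 1, 138 (101 to 184) in library 2 and 4.17 (0.106 to 23.2) in library 4, Mmp13 at 188, 39.0 and 12.5 CPM and Tgfbi, a matrix protein gene, at 1027, 926 and 955 CPM. Igf1 was nearly absent in library 1, at 3.64 CPM against 102 in library 2. Of the 13 genes 2 (Mmp12 and Mmp13) were over 2-fold higher in library 1 than in both others and 3 (Igf1, Il18 and Thbs1) were lower. The glycolysis gene Ldha stood at 1184, 650.5 and 1018 CPM against 1212, 1066 and 1469 CPM, and of the 8 hypoxia genes 1 (Slc2a1) was over 2-fold higher in library 1 than in both others.

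Beyond the lists, the 10 genes that stood highest above the next library were taken for each library. For library 1 they included the GTPase genes Gbp4 (141, 3.00 and 8.34 CPM) and Iigp1 (150.3, 24.0 and 25.0 CPM), which interferons induce, and the transcription factor gene Klf2 (2414, 432 and 242 CPM). As a background, 88 of 1351 genes at 100 CPM or more in library 1 (6.51%) were 2-fold above the next highest library. Zmynd15 (163, 12.0 and 16.7 CPM) and Plxdc2 (106, 12.0 and 0 CPM) stood in other cells of library 1 at 6.79 and 4.74 CPM, whereas Wfdc2 stood at 178 CPM in the macrophages and 1892 in other library 1 cells. The rest were Creb5, Gm26532, Hist1h2ap and Snhg12. For library 2, where 40 of 1570 genes (2.55%) passed 2-fold, they included Cxcr4 (102, 359.7 and 104 CPM), a chemokine receptor gene, Npl (11.7, 102 and 25.0 CPM), Maff, Nr4a3, Etv3 and Traf1. For library 4, where 72 of 1627 genes (4.43%) passed, they included genes of monocytes and neutrophils: Ly6c1 (10.4, 83.9 and 642 CPM), S100a4 (76.7, 228 and 817 CPM), Hp (8.03, 36.0 and 188 CPM), Slfn4 (7.44, 80.9 and 309 CPM) and Asprv1 (5.35, 18.0 and 146 CPM). The library 4 levels rest on 21 cells, 4 of which were in the top 5% of Scrublet scores of that library.

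The C1q-high MHC class II macrophages were compared with cells that met every limit but had fewer than 3 H2-Ab1 UMIs (617 cells, 141 in library 1 and 231 in library 2). This comparison was added after the data were seen, and the library 1 cells among them were shallow, with a median of 840 UMIs against 11025. The limit is a UMI count, so low depth itself places cells in this group. In library 1, 50 of the 141 held no H2-Ab1 UMI, 55 held 1 and 36 held 2. Thinned to 5000 UMIs, 3.10% of library 1 C1q-high cells were H2-Ab1-low without Cd163, in place of 10.3%. What depth contributed to the differences was not tested. A gene was counted as different where it passed 2-fold in the same direction in every library with at least 30 cells of both kinds, after 10 CPM was added to both levels, and libraries 1 and 2 had that many. Of 5637 genes 26 (0.461%) were over 2-fold higher and 23 (0.408%) lower in both libraries in the C1q-high MHC class II macrophages. With library 2 alone the counts were 86 and 88, and with library 1 alone 73 and 260. Adding library 4 at a minimum of 20 cells lowered the counts of 26 and 23, as given with the processing below. Of 10 measured presentation genes not used by the rule 7 were higher. The list median was 2.12 in library 1 and 2.04 in library 2, beside -0.14 and -0.01 over all genes. List medians here and in the comparisons below are medians of log2 ratios. H2-Aa was 6.38-fold (5.72 to 7.14) and 38.2-fold (31.9 to 46.1) higher. The groups were split by H2-Ab1, with which H2-Aa, H2-Eb1 and Cd74 had Pearson r of 0.79 to 0.83 across the library 1 macrophages thinned to 5000 UMIs. Higher class II genes are therefore a description and not independent support. Cxcl9 (5.44-fold, 3.59 to 8.68, and 29.0-fold, 6.83 to 260.3), Ccl5 (4.24-fold, 2.57 to 7.58, and 9.90-fold, 6.57 to 15.2), Mmp12 (2.61-fold, 1.95 to 3.57, and 8.79-fold, 5.05 to 15.9) and Axl were higher as well, as was Clec7a, the beta-glucan receptor gene. Across the thinned library 1 macrophages, Pearson r with H2-Ab1 was 0.21 for Cxcl9, 0.099 for Ccl5 and -0.18 for Mmp12. Hmox1 was 3.93-fold (3.4 to 4.52) and 2.24-fold (1.91 to 2.64) higher in the H2-Ab1-low cells, and Mmp9, Gpnmb and the scavenger receptor gene Stab1 were also lower in the C1q-high MHC class II macrophages. Mmp9 is also a neutrophil gene, and of 5 measured neutrophil markers it was the 1 called, with a list median of -2.31 in library 1 and 0.06 in library 2. In library 1 S100a9 stood at 432 CPM against 3234 in the H2-Ab1-low cells, and in library 2 at 1238 against 695. The part of neutrophil RNA in this comparison was not tested. None of the 8 macrophage markers, 5 Fc receptor genes or 10 measured transcription factor genes passed 2-fold in both libraries.

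**Figure D4:**
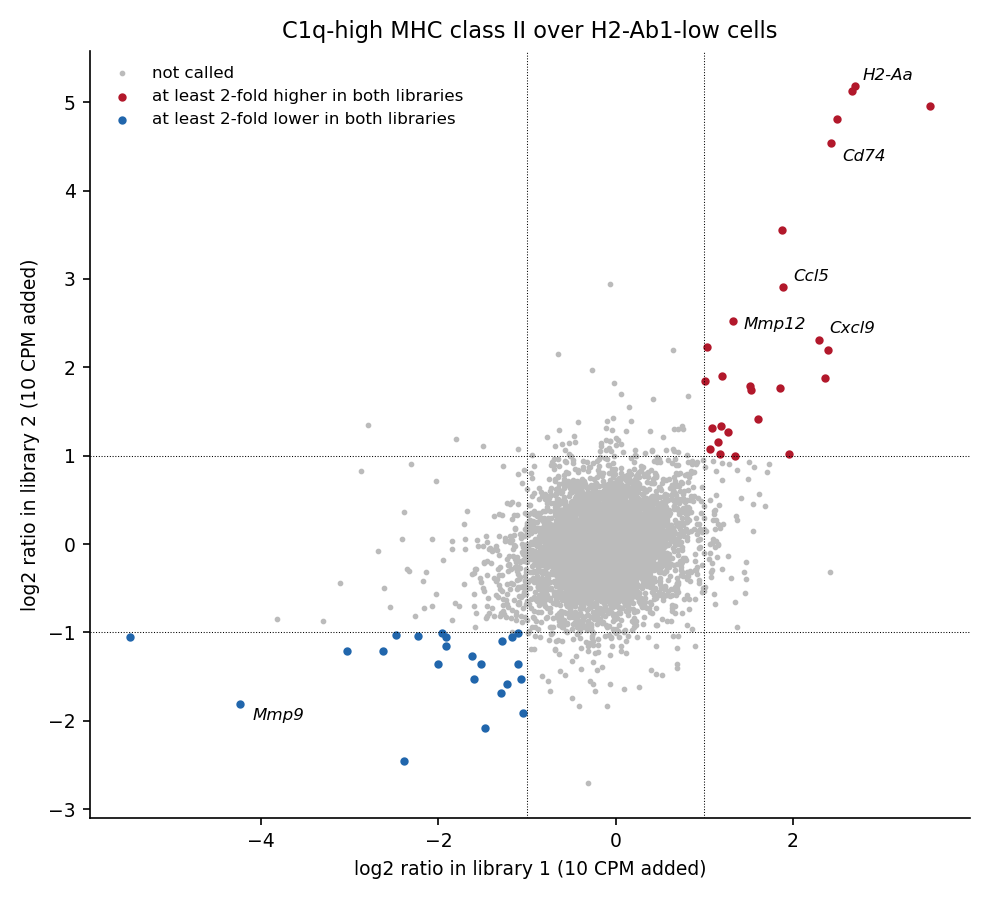
Log2 ratio of C1q-high MHC class II macrophages over cells that missed the H2-Ab1 limit, with 10 CPM added, in library 1 (horizontal axis) and library 2 (vertical axis), for each gene tested. Dotted lines mark 2-fold, and coloured points are the 26 genes higher and 23 lower in both libraries, with MHC class II genes at the upper right and Mmp9 at the lower left. H2-Ab1, which the rule used, is 1 of the 26.

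Cd163-positive counterparts (the same rule with a Cd163 UMI in place of none, 72 cells) could be compared only in library 2, with 46 of them against 40. There 121 of 5797 genes (2.09%) were over 2-fold higher and 138 (2.38%) lower, but for only 18 and 10 of these was the interval of the ratio wholly beyond 2-fold. Cd163, which the rule used, is 1 of the 138 and of the 10. Retnla, a secreted gene of alternative activation, had no UMI in the C1q-high MHC class II macrophages, which allows up to 8.99 CPM, and stood at 633 CPM in the counterparts. The coagulation gene F13a1 (2.64-fold, 2.14 to 3.27), the eotaxin gene Ccl24 (2.81-fold, 2.05 to 3.91), the lectin gene Cd209d (8.11-fold, 3.73 to 20.9) and the gap junction gene Gja1 (3.78-fold, 2.28 to 6.58) were also higher in the counterparts. Cx3cr1 stood at 60.0 CPM in the C1q-high MHC class II macrophages and 110 in the counterparts, short of 2-fold. Of 13 measured resident and scavenging genes 0 were higher and 1 lower in the macrophages, with a list median log2 ratio of -0.78. Genes higher in the C1q-high MHC class II macrophages were Mmp12 (138 against 2.50 CPM, with 1 UMI in the counterparts), Il1b (2.46-fold, 2.11 to 2.88), Ccl5 (3.27-fold, 2.17 to 5.03) and, outside the lists, G0s2, a lipolysis inhibitor gene, at 10.8-fold (6.06 to 20.8). Of 12 measured genes of the interferon and classical activation list 4 were higher (Cxcl9, Il1b, Isg15 and Rsad2), with a list median log2 ratio of 0.68 beside -0.03 over all genes. Of 10 measured presentation genes 1 (H2-DMb1) was higher and 0 lower, with a median of 0.19. Of 8 measured macrophage markers outside the rule 0 were higher and 0 lower, with a median of -0.003. The neutrophil genes S100a8 and S100a9 were also higher (2 of 4 measured neutrophil markers, median 0.60), 3 of the 40 macrophages held them at 0.5% of UMIs or more, and the part of neutrophil RNA in this comparison was not tested. Of other cell types, the fibroblast marker Dcn, the 1 measured outside the rule, was higher in the counterparts (125 against 57.0 CPM), and 1 of 2 measured endothelial markers, Kdr, was higher in the C1q-high MHC class II macrophages (42.0 against 2.50 CPM, the latter from 1 UMI). Of 3 measured cDC2 markers 1, Cd209a, was higher in the counterparts (42.5 against 12.0 CPM), with a list median of -0.90. Retnla, Cd209d and Mgl2, higher in the counterparts, were also higher in the Cd209a-positive dendritic cells described below. The part of these other cell types was not tested either.

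Ly6c2 Ccr2 cells (C1q share under 0.3%, a UMI of each gene and no Cd163, 3952 cells) were compared in library 1 (98 cells) and library 2 (281 cells). In library 1 the name monocyte did not hold for them, because 31 of the 98 carried a lymphocyte UMI (163 of the 1203 C1q-high MHC class II macrophages did) and the cytotoxic granule gene Gzma stood at 399.7 CPM, so they are called by their rule. Of 5463 genes 52 (0.952%) were higher and 70 (1.28%) lower in the C1q-high MHC class II macrophages in both libraries, and the 52 include the 3 C1q chains that chose both groups. Apoe was 5.33-fold (5.01 to 5.67) higher in library 1 and 3.21-fold (3.07 to 3.35) in library 2, Ccl8 12.7-fold (8.97 to 18.5) and 8.76-fold (8.15 to 9.43), Selenop 3.91-fold (3.05 to 5.11) and 6.54-fold (5.88 to 7.27), and Trem2 2.75-fold (2.20 to 3.48) and 2.98-fold (2.45 to 3.61). In all, 5 of 10 measured resident and scavenging genes and 5 of 14 lipid genes were higher, and the resident genes included Cx3cr1 and Gas6, whose product bridges dying cells to Axl and Mertk. Of 7 measured macrophage markers outside the rule 2 (Adgre1 and Cx3cr1) were higher. Their list median log2 ratio was 0.58 in library 1 and 0.50 in library 2. Outside the lists Cd72, the prostaglandin synthase gene Hpgds, the acid phosphatase gene Acp5 and the integrin gene Itga9 were higher. Of the 10 monocyte genes 6 were lower, a count that includes Ly6c2, which chose the second group, as Ccr2 of the same list did. Others of the 6 were Plac8 (27.1-fold, 25.3 to 29.1, and 2.29-fold, 2.05 to 2.57), Vcan, Ifitm6 and Chil3. Markers of other cell types were lower in both libraries as well, which were 2 of 4 plasmacytoid dendritic cell markers (Siglech and Ccr9, list medians -1.34 in library 1 and -1.36 in library 2), 2 of 3 measured natural killer cell markers (Gzma and Klrd1, -4.09 and -1.66) and the dendritic cell gene Cd209a. In library 2 the Ly6c2 Ccr2 cells carried Siglech at 77.1, Ccr9 at 64.8, Cd209a at 70.2 and Gzma at 44.2 CPM, and the part of dendritic cell RNA in the counts was not tested in either library. None of 10 measured presentation genes passed 2-fold in both, with a median of 0.52 and 0.75 beside -0.06 and -0.06 over all genes. Without the cells that carried a lymphocyte UMI, 37 genes were higher and 73 lower, 33 and 59 of them shared with the first counts. With library 2 alone 196 genes were higher and 198 lower, and with library 1 alone 131 and 223. Adding library 4 at a minimum of 20 cells lowered both first counts, as given with the processing below.

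Cd209a-positive dendritic cells (H2-Ab1 at 3 UMIs or more, a Cd209a UMI, C1q under 0.3% and no Cd163, 320 cells) had the most genes past 2-fold of the 4 comparisons and show where antigen presentation genes stood in a professional presenting cell. Library 2 was the only library with 30 or more of both kinds (124 dendritic cells), and 505 of 5699 genes (8.86%) were over 2-fold higher and 306 (5.37%) lower in the C1q-high MHC class II macrophages. The 505 include the 3 C1q chains and the 306 include H2-Ab1, which the rule used, and Cd209a, which chose the dendritic cells. Both counts were much lower with library 4 added at a minimum of 20 cells, as given with the processing below. Of 10 measured presentation genes 7 were lower, with Cd74 2.12-fold (2.04 to 2.20), H2-Aa 2.16-fold (2.04 to 2.28) and H2-DMb2 7.58-fold (4.46 to 14.0) higher in the dendritic cells, while the protease genes Lgmn (10.7-fold, 9.31 to 12.4) and Ctss (2.36-fold, 2.15 to 2.59) were higher in the macrophages. All 8 measured macrophage markers, 11 of 13 resident and scavenging genes, 11 of 16 lipid genes, 11 of 13 chemokine genes and 4 of 5 Fc receptor genes were higher. So were 3 of 4 measured neutrophil markers (S100a8, S100a9 and Csf3r, list median log2 ratio 1.13), and the part of neutrophil RNA was not tested. Apoe was 56.0-fold (48.7 to 64.8) higher, Ms4a7, a macrophage membrane gene, 110.2-fold (62.3 to 215), and Ccl8 67.5-fold (55.3 to 83.3). Lower genes were Mgl2 (85.2-fold, 33.2 to 313), Ifitm1 (10.3-fold, 8.27 to 13.1), the lectin gene Cd209d and Flt3, with Ccr7 at 8.99 against 153 CPM. Klk1, Cd7, Ear2 and Ccl17 had no UMI in the 40 macrophages and stood at 200.3, 159, 82.6 and 104 CPM in the dendritic cells.

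Variation among the C1q-high MHC class II macrophages was described in library 1 alone, over 963 cells thinned to 5000 UMIs each (240 shallower cells were left out). Of 1352 genes with a mean of at least 0.5 UMI, the median Fano factor (variance over mean) was 1.20, and 65 genes reached 5. S100a8 (175) and S100a9 (111), concentrated in the 24 cells named above, were the most uneven, followed by the chemokine genes Ccl8 (108) and Ccl5 (39.2). A Ccl8 UMI was found in 32.3% of the cells with a highest value of 301 UMIs, and a Ccl5 UMI in 19.2% with up to 105. Other uneven genes were Fth1 (35.5), Spp1 (28.4), Cxcl2 (28.0), Apoe (27.3), Fabp5 (21.5) and Cd74 (20.5). Cxcl9 was found in 40.4% and Cxcl10 in 47.7% of these cells. Thinned to 1000 UMIs, the shares with a UMI in library 1 macrophages and neutrophils were 15.8% and 6.71% for Ccl8, 7.92% and 2.29% for Ccl5 and 27.5% and 7.77% for Cxcl10.

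Genes varied together in a few groups, given as Pearson r across the 963 cells with no test. The cells share a library and a depth, and the groups were drawn after the values were seen. The 4 MHC class II genes H2-Aa, H2-Ab1, H2-Eb1 and Cd74 had r of 0.79 to 0.87 with each other, the 3 C1q chains 0.57 to 0.67, and MHC class II with C1q 0.22 to 0.31. Other close pairs were Ccl2 with Ccl7 (0.56), Fos with Hspa1a (0.59), Fth1 with Ftl1 (0.54), Nfkbia with Tnf (0.45) and Isg15 with Rsad2 (0.39). Between MHC class II genes and the group of Fabp5, Ftl1, Fth1, Lgals3, Mmp12 and Pf4, r ran from -0.45 to -0.08, lowest for H2-Aa with Pf4. Apoe went with Cd74 (0.44) and C1qa (0.43).

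**Figure D5:**
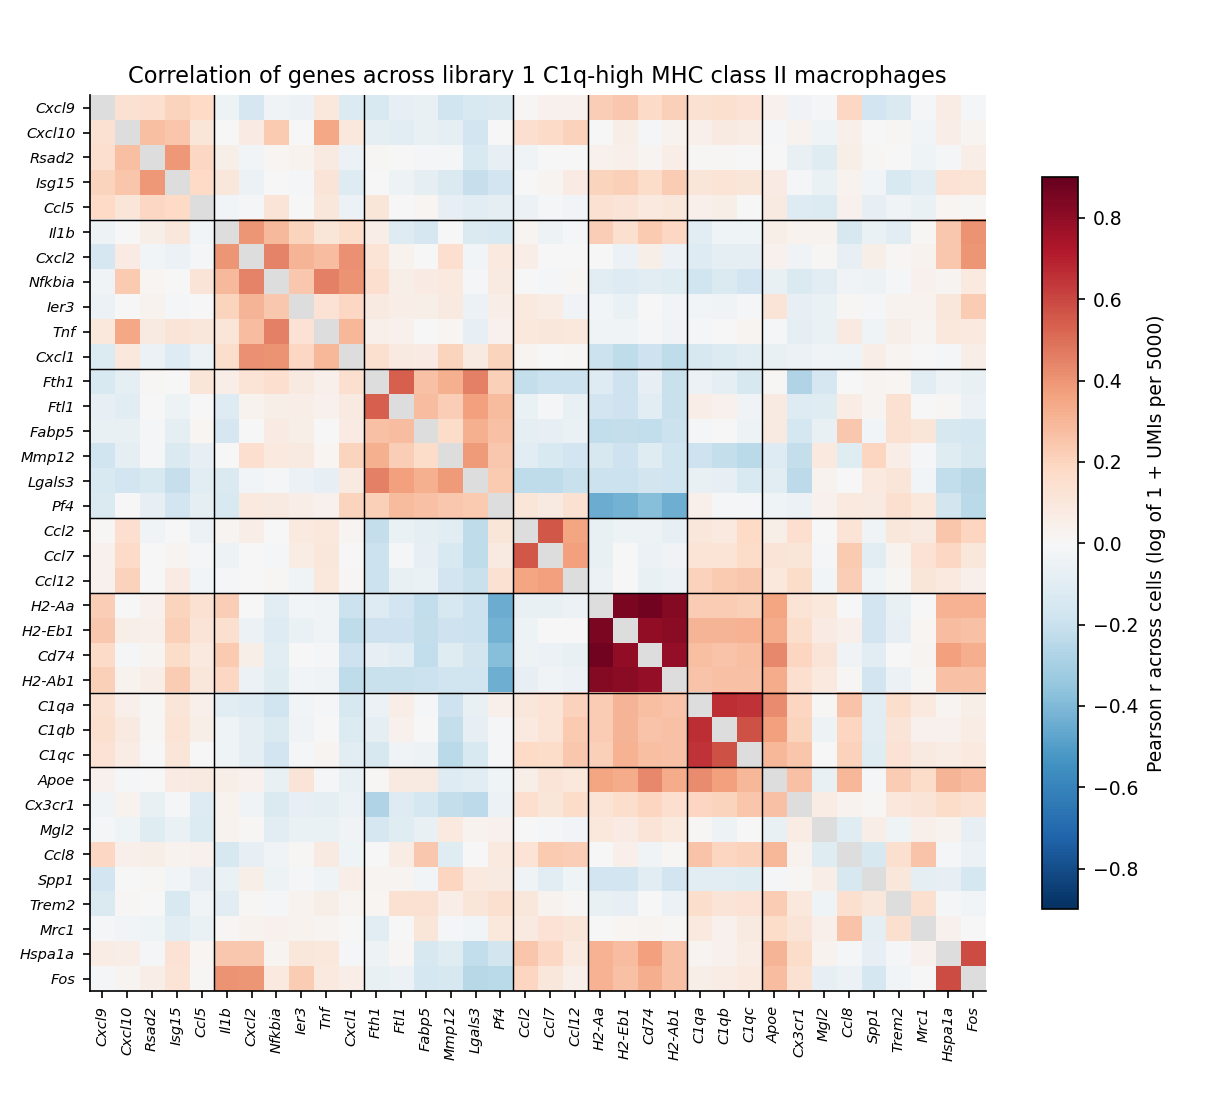
Pearson r (colour scale) between pairs of named genes (both axes) across 963 library 1 cells thinned to 5000 UMIs each, on the log of 1 plus UMIs, with the diagonal in grey. The MHC class II block (0.79 to 0.87) is the strongest, followed by the C1q block (0.57 to 0.67), and MHC class II is negative against Fabp5, Ftl1, Fth1, Lgals3, Mmp12 and most of all Pf4.

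Cells with a Cx3cr1 UMI (665) and without (298) differed in their mean UMIs per 5000 UMIs of Mmp12 (1.35 against 3.25), Fabp5 (1.70 against 4.16) and Ccl8 (2.43 against 7.06). For Ccl8 the share of cells with a UMI ran the other way, at 35.3% (31.7 to 39.1) with Cx3cr1 and 25.5% (20.7 to 30.8) without, and the mean rested on few cells with many UMIs. Cxcl10 stood at 3.4 against 2.84 and Il1b at 18.9 against 19.1. Cells with an Mgl2 UMI (415) and without (548) held H2-Aa at 36.8 against 34.0 UMIs.

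A fraction of the macrophages carried cell cycle transcripts. In library 1, 206 of 1203 cells (17.1%, 15.0 to 19.4) held 10 or more UMIs of the 10 cell cycle genes, against 1.71% of the library 1 neutrophils, which do not divide and are shallower, and 1 of 40 cells in library 2 and 0 of 21 in library 4 did so. An Mki67 or Top2a UMI, from genes of dividing cells, was found in 38.7% of the cells (36.0 to 41.6), against 8.08% of the neutrophils. After thinning to 1000 UMIs, Mki67 remained in 5.88% of the macrophages and 1.07% of the neutrophils, and Top2a in 6.39% and 2.29%. Among the keratin-rich tumour cells of library 1 the thinned shares were 2.25% for Mki67 and 5.90% for Top2a. Other library 1 cells held Top2a at 149.9 CPM against 82.5 in the macrophages, and the part of free RNA in these shares was not tested. Among the 963 cells thinned to 5000 UMIs, cells with an Mki67 UMI (185) held Stmn1 at 1.93 against 0.39 UMIs and Birc5 at 0.90 against 0.17, while Cd74 stood at 98.2 against 113, Il1b at 18.6 against 19.0 and Cx3cr1 at 1.70 against 1.92.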

How the data were processed

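CD45-enriched cells of 4 tumour samples were profiled by droplet single-cell RNA sequencing. The authors aligned reads, called cells and joined the libraries with Cell Ranger, whose version is 6.1.2 in the matrix header, 3.0.2 in the protocol and 2.1.1 in the submitters' processing notes, which name build mm10. Seurat 3.0.0.9000 was used for their later steps. The deposited values are whole-number UMI counts, not scaled per cell. Gene coordinates came from the matching annotation (GRCm38, all 55450 identifiers matched) and promoters from RefSeq (GRCm38.p6). The symbol Aldoa, shared by 2 identifiers, was not used, and Ero1a was not found.

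Cells with at least 300 genes and at most 15% of UMIs from 37 mitochondrial genes were kept (32133 of 33064 barcodes; the protocol gives 15603 cells for a preliminary matrix). UMI counts were summed by library and cell group and scaled to CPM. Genes with a mean of at least 20 CPM were compared after 10 CPM was added, and a call needed 2-fold in every library with 30 or more cells of both kinds. Libraries are not replicates of a condition, so no p-value was computed. Intervals are exact binomial, Poisson or conditional binomial at 95%. They cover counting error only, and an upper limit for a count of 0 is 3 counts in the text, below the Poisson bound that the plot of levels draws. Shares of cells with a UMI were also computed with every cell thinned to 1000 UMIs, which left out 29 macrophages and 161 of 817 neutrophils, and within-library variation with cells thinned to 5000. Neutrophils of library 1 (S100a8 and S100a9 at 1% of UMIs or more) served as the background for such shares.

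Named genes were all genes of the lists, in each comparison 10 further genes per direction with the largest of the smallest ratios over libraries, and 10 further genes per library at 100 CPM or more. Library 3 was left out of that ranking. The members, lists and comparisons were chosen with earlier results of these data known. Some genes of the lists, and 1 comparison planned, are not reported here. Doublets were scored per library with Scrublet in scanpy 1.11.5 and kept. Its automatic threshold marked 2.75%, 0.0116%, 0% and 1.73% of cells in libraries 1 to 4, so it did not work in libraries 2 and 3. Scripts ran in Python 3.11.15 with numpy 2.4.6, scipy 1.17.1, pandas 2.3.3 and matplotlib 3.10.9 and were tested on simulated data. Alternatives were other limits of the rule, added CPM, filters on low genes, cell filters, the highest 5% of Scrublet scores left out and each library left out.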

Additional observations from a re-analysis of the deposited data

How the results depend on the processing

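The share of cells, 3.94%, stayed inside its interval with a C1q limit of 0.2% (4.10%), at least 500 genes (4.08%), mitochondrial UMIs of at most 10% (3.97%), the highest 5% of Scrublet scores left out (3.95%), thinning to 1000 UMIs with an H2-Ab1 limit of 1 UMI (3.98%) and, added after the data were seen, cells rich in S100a8 and S100a9 left out (3.85%). It became 3.67% with C1q at 0.5%, 4.64% and 3.38% with 1 and 10 H2-Ab1 UMIs, 4.16% with no Cd163 limit, 4.20% with no keratin and collagen limits and 6.07% of cells thinned to 5000 UMIs (added after the data were seen). Leaving out each library in turn gave 0.259 to 5.36%, the lowest without library 1.

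Alternatives were run for the share and the gene counts. Of 82 alternative values of the 8 gene counts, 38 lay within 1.5 times the reported count and 44 did not. With 1 CPM added, higher and lower genes numbered 247 and 266 against Cd163-positive counterparts and 81 and 112 against Ly6c2 Ccr2 cells. With 50 CPM added they numbered 17 and 15, and 18 and 20 in these comparisons, and 216 and 103 against Cd209a-positive dendritic cells. At a mean of at least 100 CPM they numbered 20 and 20, 24 and 21, and 185 and 95. With no filter they numbered 252 and 372 against Cd163-positive counterparts, and 585 were lower against dendritic cells. With C1q at 0.5%, which left library 1 alone, the Ly6c2 comparison 133 and 228. Leaving out a library gave 52 to 196 higher and 70 to 223 lower genes in the Ly6c2 comparison, and 26 to 86 and 23 to 260 in the H2-Ab1-low comparison, the change coming from libraries 1 and 2 alone. With 20 cells in place of 30 (added after the data were seen, which adds library 4), counts were 21 and 28 and 275 and 171 in the Ly6c2 and dendritic cell comparisons. In the H2-Ab1-low comparison, whose alternatives were all added after the data were seen, counts were 43 and 53 with 1 CPM added, 10 and 4 with 50 CPM added, 16 and 8 at a mean of at least 100 CPM, 38 lower with no filter, 102 and 303 with C1q at 0.5% and 10 and 5 with library 4. Which direction had more calls changed with the setting in the Cd163, Ly6c2 and H2-Ab1-low comparisons (121 higher and 138 lower, 52 and 70, and 26 and 23 as reported), so nothing is read from that balance. The Cd163 and dendritic cell comparisons gave no value with C1q at 0.5% or without library 2. The causes of these changes were not tested, beyond the number of genes and cells that each setting leaves.

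The 40, 2 and 21 cells of libraries 2, 3 and 4 limit what could be seen there, and a count of 0 allows up to 8.99 CPM in library 2 and 12.5 CPM in library 4. No paired analysis was possible because no replicate number is linked to a library and no test was run.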
